A study of Mus musculus with 67 samples.

Results

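The 47 mitosis genes described here were taken by name, as genes whose products drive or carry out cell division, and they are 47 of the 35612 genes counted in these tables. All 47 were counted in both cell types and passed the low-count filter in each of the 26 comparisons, and none was at 0 counts in any of the 60 libraries. By role they comprise the proliferation mark Mki67 and the topoisomerase Top2a; Cdk1 with its cyclins Ccna2, Ccnb1 and Ccnb2 and the activating phosphatases Cdc25b and Cdc25c; the kinases Aurka, Aurkb and Plk1; and the spindle checkpoint genes Bub1, Bub1b, Bub3, Mad2l1 and Ttk. Cdc20, Ube2c and Pttg1 belong to the anaphase step, Birc5, Incenp and Cdca8 to the chromosomal passenger complex, and Cenpa, Cenpe, Cenpf, Ndc80, Nuf2, Spc24 and Spc25 to the centromere and kinetochore. Kif11, Kif20a, Kif23, Kif2c and Kif4 are mitotic kinesins, Nusap1, Tpx2, Hmmr and Prc1 assemble the spindle and its midzone, and Ect2, Anln and Racgap1 serve cytokinesis. Smc2, Smc4, Ncapd2, Ncapg and Ncaph encode condensin I, and Foxm1 is a transcription factor of late cell cycle genes.

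Cells enter mitosis when Cdk1 bound to a cyclin phosphorylates its substrates, condensin packs the chromosomes, and kinetochores are captured by spindle microtubules. The spindle checkpoint holds back the anaphase-promoting complex until all kinetochores are attached, after which securin and cyclin B are degraded and the cell divides. Most of these genes are held silent in resting lymphocytes by the DREAM complex and are switched on late in the cell cycle by the MuvB core with B-Myb and Foxm1.

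The libraries were made from RNA of B cells and of CD4+ T cells, purified by negative selection from spleen and from inguinal and brachial lymph nodes of C57BL/6 mice, and per the study's general methods adult animals of both sexes were used. The mice were either immunized for experimental autoimmune encephalomyelitis (EAE), a model in which T cells attack myelin, or naive. Within each of the 4 sets (EAE B, naive B, EAE T and naive T) the labels give 5 arms of 3 libraries, 60 libraries in 20 groups. In 4 arms the cells were stimulated for 18 h through their antigen receptor, with anti-CD3 for T cells or anti-IgM/G for B cells on beads that also carried an agonistic anti-Btla antibody or a control Ig, each with or without soluble interferon beta (IFNb), and the arm without stimulation is the baseline. Whether the unstimulated cells were also kept in culture for 18 h, or with beads, is not given in the labels. In the comparison called activation here, receptor stimulation, culture time and beads therefore cannot be told apart. Btla is an inhibitory receptor of lymphocytes. No group carried an engineered allele. The dose of IFNb, the stage of EAE and whether numbered libraries came from separate animals are not given in the labels, so p-values cover the spread among these libraries, which may be technical. These are bulk libraries, and fewer dividing cells and less RNA per dividing cell cannot be told apart.

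Total depth was 6681486 to 61964221 counts in B cell and 7297879 to 34019896 counts in T cell libraries, and the EAE B anti-Btla arm holds the shallowest library. The T cell marker list was summed at 17.4 to 34.1 CPM (counts scaled to a common library total) in B cell libraries and at 2003.8 CPM or more in T cell libraries. The B cell marker list was summed at 21.7 to 200.8 CPM in T cell libraries, with the highest value in unstimulated EAE T cells. In B cell libraries it was at 3873.4 CPM or more. Erythroid precursor markers stayed at 9.2 CPM or less in all 60. Naive T libraries, labelled CD4+, held the CD8 transcripts Cd8a and Cd8b1 at a summed 500.6 to 1096.3 CPM, against 13.2 to 26.2 CPM in EAE T libraries. Libraries of one number also stood together in B cells: the summed level of the members without Smc4 was highest in replicate 1 in 5 of 5 arms of both EAE B and naive B, and lowest in replicate 2 in 5 of 5 EAE B arms. Interferon-induced Isg15, Ifit3 and Mx1, checked after their values were seen, had overlapping ranges in arms with and without IFNb in all 4 sets. Isg15, for example, was at 3.26 to 7.87 CPM in EAE B control Ig with IFNb, against 2.63 to 11.23 CPM in EAE B control Ig alone.

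Promoters were examined because the members are known for a shared one: MuvB binds the cell cycle genes homology region (CHR), and the factor NF-Y binds a CCAAT box upstream of it. Windows were taken from the RefSeq promoter table for GRCm38.p6 and run from 250 bases before to 50 bases after each start site. Those of 38 of the 47 members were examined. The other 9 members, among them Cdc25c and Kif20a, were not examined, so the member shares below cover the 38 only. A CHR was searched as TTTGAA or TTCGAA and the NF-Y box as CCAAT, both on either strand. A CHR was found in 30 of the 38 (78.9%), against 21.7% of all 27025 genes in the table, and CCAAT in 29 of the 38 (76.3%), against 41.1% of all genes. Both were found in 27 members (71.1%) and in 8.6% of all genes. The CHR lay within 50 bases of the start site in 27 members. Below are 5 of these windows, printed along the gene's strand with CHR and CCAAT matches in capitals: Cdk1 (chr10:69352863-69353162, minus strand) and Cdca8 (chr4:124936868-124937167, minus strand), which had some of the strongest increases with activation, Cdc20 (chr4:118437294-118437593, minus strand), and Cenpa (chr5:30666636-30666935, plus strand) and Cdc25b (chr2:131186698-131186997, plus strand), which moved against the other members. CCAAT reads as ATTGG where it lies on the other strand. In Cdca8 the CHR overlaps a CCAAT match.
Cdk1: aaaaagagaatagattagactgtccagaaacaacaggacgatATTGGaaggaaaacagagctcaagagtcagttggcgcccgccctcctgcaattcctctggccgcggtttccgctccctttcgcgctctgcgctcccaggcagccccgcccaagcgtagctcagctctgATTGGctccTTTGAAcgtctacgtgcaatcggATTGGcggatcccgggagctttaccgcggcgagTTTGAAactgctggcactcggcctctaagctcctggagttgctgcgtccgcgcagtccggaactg
Cdca8: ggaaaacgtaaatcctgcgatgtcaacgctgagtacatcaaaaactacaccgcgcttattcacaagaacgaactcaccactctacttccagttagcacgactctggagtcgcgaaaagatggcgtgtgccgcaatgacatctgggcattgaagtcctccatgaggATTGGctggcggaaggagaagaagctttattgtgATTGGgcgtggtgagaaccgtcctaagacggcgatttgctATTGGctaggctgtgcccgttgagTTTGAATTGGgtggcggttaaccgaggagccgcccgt
Cdc20: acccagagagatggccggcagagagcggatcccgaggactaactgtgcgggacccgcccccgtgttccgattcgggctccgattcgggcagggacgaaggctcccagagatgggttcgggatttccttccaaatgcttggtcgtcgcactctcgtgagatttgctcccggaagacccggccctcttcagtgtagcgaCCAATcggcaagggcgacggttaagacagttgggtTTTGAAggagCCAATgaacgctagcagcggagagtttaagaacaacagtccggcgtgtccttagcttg
Cenpa: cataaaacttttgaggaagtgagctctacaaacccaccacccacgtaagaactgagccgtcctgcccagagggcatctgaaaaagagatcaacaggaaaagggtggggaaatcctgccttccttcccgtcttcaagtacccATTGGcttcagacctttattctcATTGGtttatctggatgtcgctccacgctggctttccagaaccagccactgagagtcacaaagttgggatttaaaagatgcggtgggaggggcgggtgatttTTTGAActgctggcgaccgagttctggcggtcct
Cdc25b: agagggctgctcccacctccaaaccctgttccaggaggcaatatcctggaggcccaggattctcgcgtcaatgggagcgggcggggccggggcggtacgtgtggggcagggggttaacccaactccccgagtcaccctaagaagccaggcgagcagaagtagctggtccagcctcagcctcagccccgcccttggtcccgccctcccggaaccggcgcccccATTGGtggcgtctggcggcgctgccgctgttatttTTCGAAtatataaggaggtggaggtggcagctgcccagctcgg

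All 5 windows hold both elements, with the CHR as TTCGAA in Cdc25b and as TTTGAA in the others. The number and position of the matches differ between the windows. Any part of these differences in the direction of change was not tested. Over the 38 members, 24 of 30 with a CHR and 7 of 8 without one were called higher with activation in EAE T cells, where 31.7% of all genes tested were called higher, and the median log2 changes were 1.48 and 1.61. A match is a description of the letters and not of binding.

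**Figure D1:**
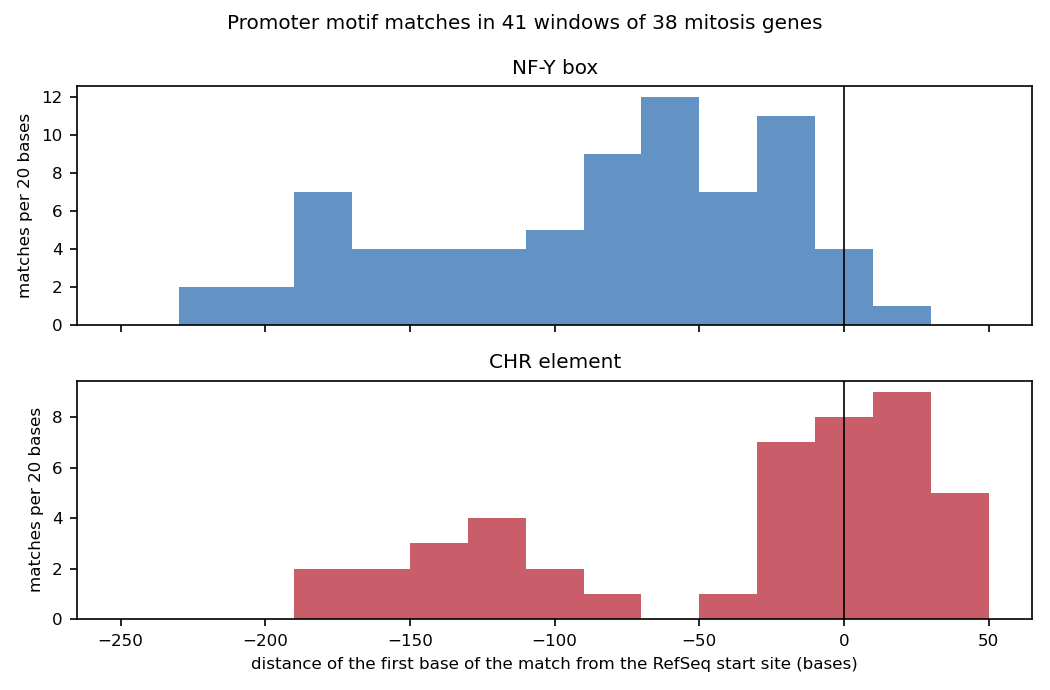
Distance of each CHR element (lower panel) and NF-Y box (upper panel) match from the RefSeq start site, in bases, as the number of matches per 20 bases over 41 windows of 38 mitosis genes. Most CHR matches lie around the start site with a smaller group upstream, and NF-Y boxes lie mostly upstream of it.

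Levels between genes were compared as TPM, which is scaled per transcript length. In activated EAE T cells (control Ig arm, mean of 3 libraries) Smc4 led with 184 TPM, followed by Top2a with 95.9 TPM, Bub3 with 48.2 TPM and Smc2 with 42.5 TPM, and Cdc25c was lowest at 2.08 TPM. In unstimulated naive T cells Smc4 stood at 556 TPM and Cdc25b at 40.3 TPM, while Bub1, Ttk, Kif4, Cenpe and Cenpf were each below 0.6 TPM. The order of members therefore differed between resting and activated cells, with Smc4 on top in both. Because Smc4 alone made up 61.8 to 63.1% of the members' summed CPM in unstimulated naive T cells, against 19.1 to 19.6% in the EAE T control Ig arm, sums are given without it. Without Smc4 the 46 others summed to 1415 ± 81.4 CPM in the EAE T control Ig arm, against 672 ± 45.1 CPM in unstimulated EAE T cells (SD, n = 3 each). The sum was 579 ± 16.1 CPM in naive T control Ig, against 630 ± 29.7 CPM in unstimulated naive T. In B cells it was 814 ± 125 CPM in EAE B control Ig, against 602 ± 25.7 CPM in unstimulated EAE B, and 784 ± 76.3 CPM in naive B control Ig, against 743 ± 78.4 CPM in unstimulated naive B. The control Ig and unstimulated libraries did not overlap in EAE T and EAE B cells, where the control Ig sum was higher, nor in naive T cells, where it was lower, and they overlapped in naive B cells.

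**Figure D2:**
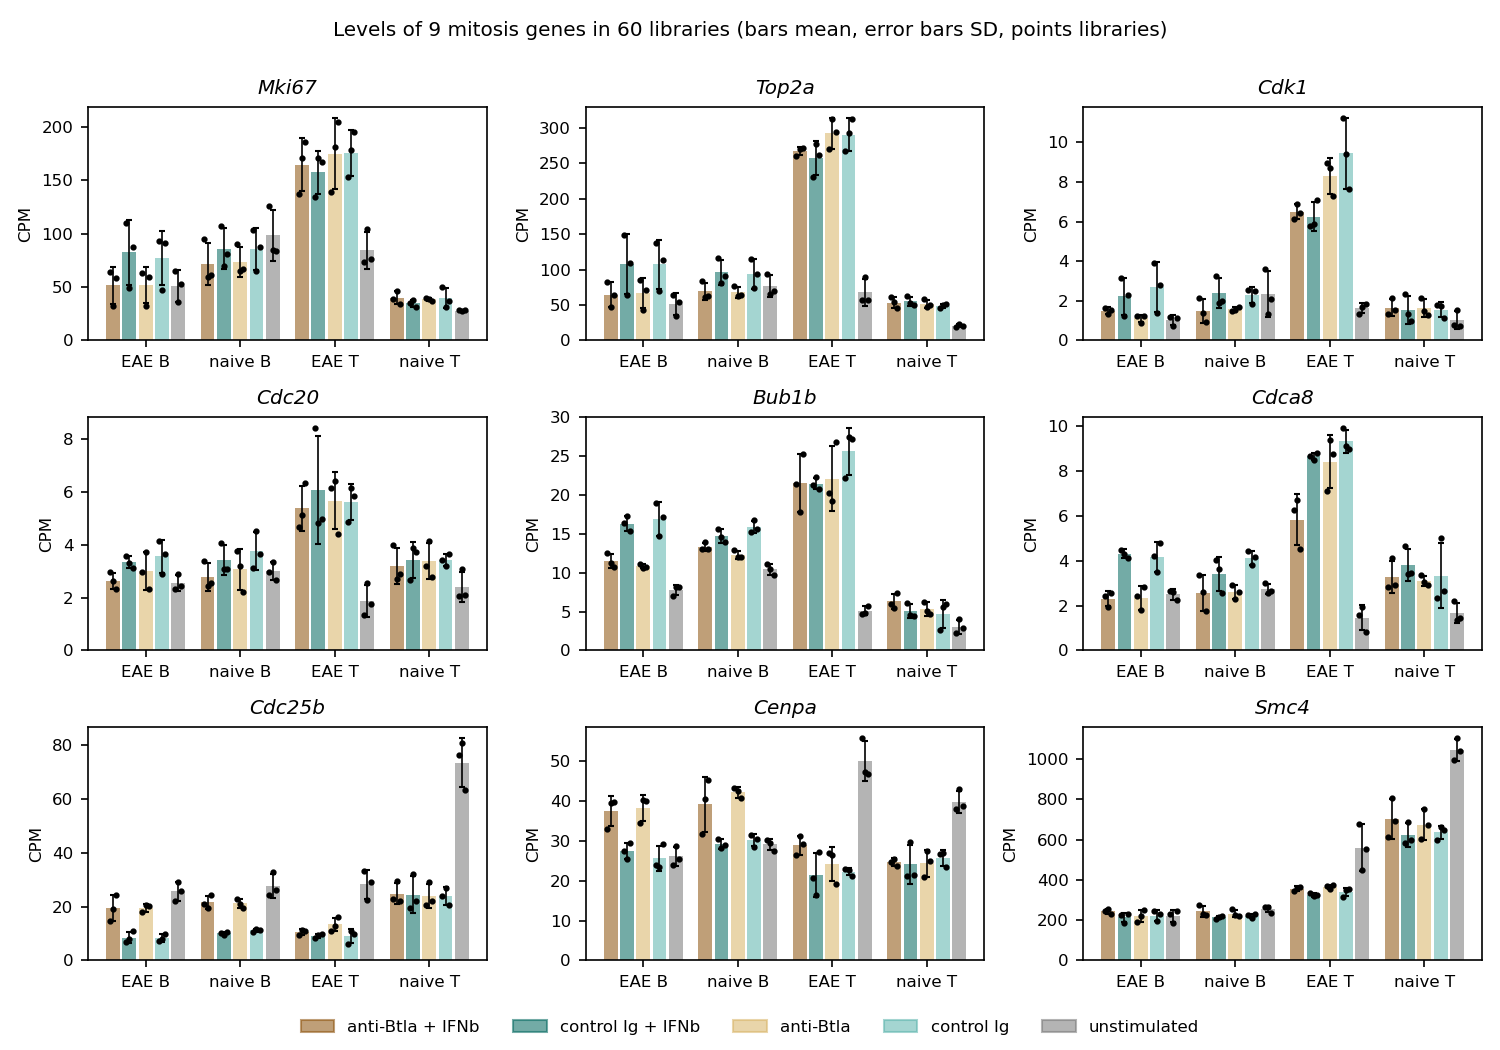
CPM of 9 mitosis genes in the 4 sets, with bars for the mean of 3 libraries, error bars for the SD and points for single libraries in the 5 arms. In EAE T cells the stimulated arms of Mki67, Top2a, Cdk1, Bub1b and Cdca8 stand above the unstimulated arm, Cdc25b stands lower in control Ig arms than in unstimulated arms of all 4 sets, and anti-Btla arms of B cells have higher Cdc25b and Cenpa than control Ig arms.

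Of the 4 sets, activation moved the most mitosis genes in EAE T cells. Of the 47 members, 38 rose and 4 fell in control Ig against unstimulated EAE T cells (edgeR, adjusted p below 0.05), where 31.7% of the 14572 genes tested were called higher and 31.3% lower. The median log2 change was 1.47 over the members and -0.07 over all genes tested. Bub1b, the checkpoint protein BubR1, had 22.1, 27.5 and 27.1 CPM in the control Ig libraries, against 4.67, 4.83 and 5.74 CPM in the unstimulated ones, a log2 change of 2.37 ± 0.16 (SE). Cdk1 had 11.2, 9.42 and 7.67 CPM, against 1.33, 1.69 and 1.84 CPM, and rose by 2.51 ± 0.21. Cdca8, the borealin subunit of the passenger complex, had the largest rise at 2.88 ± 0.25 (7.36-fold), with 9.93, 9.12 and 8.98 CPM against 1.60, 1.93 and 0.835 CPM. For these genes the control Ig libraries did not overlap the unstimulated ones.

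By smallest p the rises in EAE T cells were led by Top2a, Smc2 and Bub1b, with Ncaph next. Top2a, which untangles sister chromatids, had 267, 292 and 313 CPM in control Ig libraries, against 57.3, 89.9 and 56.6 CPM in unstimulated libraries (log2 change 2.17 ± 0.12, adjusted p = 3.4e-10 by edgeR). Smc2, the condensin ATPase, had 130, 126 and 137 CPM, against 37.0, 44.2 and 34.9 CPM (1.81 ± 0.11). Ncaph, the condensin I kleisin, had 25.4, 37.2 and 30.5 CPM, against 8.01, 6.41 and 5.25 CPM (2.33 ± 0.16). Every control Ig value lay above every unstimulated one, by more than the spread within either group. Mki67, whose protein coats mitotic chromosomes, had 153, 178 and 195 CPM in control Ig libraries, against 73.0, 104 and 75.9 CPM in unstimulated ones, and its log2 change of 1.11 ± 0.10 was below the members' median. Kif11, the kinesin that pushes spindle poles apart, had 34.0, 40.9 and 48.9 CPM, against 12.4, 14.3 and 12.6 CPM (1.72 ± 0.12). Tpx2, which activates Aurora A on the spindle, had 24.3, 22.5 and 21.8 CPM, against 4.67, 7.98 and 5.77 CPM (1.95 ± 0.15). These members rose in parallel, and the groups were again apart.

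Among the kinases and cyclins in EAE T cells, Aurkb, the passenger complex kinase, had 11.5, 18.9 and 14.9 CPM in control Ig libraries, against 2.67, 3.63 and 2.19 CPM in unstimulated libraries (2.54 ± 0.22). Aurka, the centrosome kinase, had 7.12, 8.33 and 5.75 CPM, against 1.33, 2.54 and 3.37 CPM (1.51 ± 0.31), and Plk1, which acts from mitotic entry to cytokinesis, had 7.88, 7.34 and 10.4 CPM, against 2.67, 3.75 and 3.20 CPM (1.47 ± 0.23). Cyclin A2 was the cyclin with the larger response: Ccna2 had 42.1, 47.7 and 52.0 CPM, against 6.41, 13.1 and 10.4 CPM (2.30 ± 0.17). Ccnb1 had 15.2, 14.7 and 18.3 CPM, against 2.67, 7.49 and 5.84 CPM (1.62 ± 0.22), whereas Ccnb2 rose by 0.64 ± 0.27 (adjusted p = 0.0499), just inside the threshold. The anaphase activator Cdc20 had 4.86, 6.15 and 5.85 CPM, against 1.33, 2.54 and 1.77 CPM (1.62 ± 0.31). All 3 kinases, 5 of 5 checkpoint genes and 3 of 3 passenger complex genes rose. Birc5 (survivin) had 10.8, 7.04 and 9.28 CPM, against 6.54, 6.16 and 7.20 CPM, and rose by 0.49 ± 0.18 although the lowest control Ig library lay below the highest unstimulated one. Anln, the cytokinetic ring protein anillin, had 10.6, 14.1 and 11.8 CPM, against 7.88, 7.13 and 6.05 CPM (0.87 ± 0.17), and Foxm1 had 15.2, 15.6 and 18.9 CPM, against 10.9, 10.2 and 8.76 CPM (0.80 ± 0.16). The reads of Foxm1 share exon sequence with Gm44596 and Tex52 on the same strand and are uncertain to that extent. Ncapg, the condensin subunit with the steepest rise, had 17.9, 14.9 and 18.4 CPM, against 3.34, 3.63 and 2.78 CPM (2.50 ± 0.19).

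Of the 47 members, 4 fell in activated EAE T cells. Cdc25b had 6.15, 11.1 and 9.99 CPM in control Ig libraries, against 33.2, 22.6 and 29.2 CPM in unstimulated ones (log2 change -1.61 ± 0.19). Cenpa, the histone variant that marks centromeres, had 22.9, 22.7 and 21.3 CPM, against 55.8, 47.4 and 46.9 CPM (-1.12 ± 0.16). Smc4 had 315, 347 and 353 CPM, against 678, 447 and 552 CPM (-0.67 ± 0.11), opposite to its obligate partner Smc2. Pttg1, the securin that holds back separase, had 15.1, 10.8 and 11.4 CPM, against 18.4, 18.9 and 19.4 CPM (-0.57 ± 0.14). The groups did not overlap for any of the 4. The remaining 5 members, Ndc80, Spc24, Kif23, Hmmr and Prc1, had log2 changes of -0.07 ± 0.10, -0.44 ± 0.22, 0.38 ± 0.18, 0.03 ± 0.12 and -0.12 ± 0.15 and did not pass the test. Ndc80, a microtubule-binding kinetochore subunit, had 32.8, 32.5 and 29.3 CPM in control Ig, against 34.7, 37.1 and 31.2 CPM in unstimulated libraries, and the groups overlapped. Its complex partners Nuf2 and Spc25 rose by 1.60 ± 0.27 and 2.01 ± 0.38.

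Marker lists named after other cell types moved in the same comparison, and a summed change does not show that such cells were present. The summed myeloid list was 27.5 to 78.6 CPM in EAE T control Ig libraries, against 137.8 to 360.1 CPM in unstimulated ones, with 6 of 8 genes tested called lower, and the summed regulatory T cell list was 2733.5 to 3465.6 CPM, against 610.6 to 928.1 CPM, with 2 of 4 called higher and 1 lower. The plasma cell list (5 of 6 genes tested, 3 called higher and 1 lower) summed to 2782.3 to 2948.7 CPM, against 219.8 to 310.0 CPM. Its genes Sdc1 and Mzb1 were below 1 CPM in every EAE T control Ig library. The germinal center B cell list (3 of 6 tested, 1 called lower) summed to 34.5 to 38 CPM, against 124.0 to 138.7 CPM. Their part in the members' changes was not tested.

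In naive T cells activation moved members in both directions, in numbers close to the background. Control Ig against unstimulated naive T cells called 16 members higher and 8 lower, where 27.1% of 15150 genes were called higher and 23% lower (50.1% in all), and the members' median log2 change was 0.23. All 16 that rose also rose in EAE T cells (42.1% of the 38). By smallest p the rises were led by Top2a, Kif11 and Ccna2. Top2a had 46.0, 49.7 and 50.9 CPM in control Ig libraries, against 19.5, 23.1 and 19.9 CPM in unstimulated ones (1.30 ± 0.11). Kif11 had 15.1, 12.3 and 12.4 CPM, against 5.32, 8.72 and 7.01 CPM (0.94 ± 0.14), and Ccna2 had 9.59, 8.95 and 8.41 CPM, against 6.23, 4.62 and 4.83 CPM (0.86 ± 0.17). The values of all 3 were apart between the groups. Mki67 had 49.6, 31.4 and 36.9 CPM, against 28.04, 27.2 and 28.7 CPM (0.51 ± 0.13). Cdk1 stayed between 1.11 and 1.78 CPM in control Ig, against 0.743 to 1.54 CPM in unstimulated libraries, and overlapped (0.62 ± 0.37). Bub1 and Ttk had the largest fitted rises at 1.88 ± 0.38 and 1.83 ± 0.42, but from levels near 1 CPM or below: Ttk had 3.15, 1.90 and 1.64 CPM, against 0.389, 0.342 and 0.929 CPM.

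The members lower in activated naive T cells were the 4 that fell in EAE T cells and Kif23, Racgap1, Ndc80 and Hmmr. Cdc25b had 24.1, 27.1 and 20.5 CPM in control Ig, against 76.2, 80.9 and 63.2 CPM in unstimulated naive T libraries (-1.57 ± 0.09, adjusted p = 1.06e-10 by edgeR). Smc4 had 597, 661 and 650 CPM, against 995, 1104 and 1043 CPM (-0.66 ± 0.04). Kif23, the motor of the centralspindlin complex, had 13.2, 11.4 and 12.2 CPM, against 25.2, 27.5 and 26.8 CPM (-1.06 ± 0.11), and its partner Racgap1 had 36.3, 34.1 and 37.8 CPM, against 48.3, 61.1 and 55.2 CPM (-0.54 ± 0.08). Summed over all transcripts, the 2 genes of centralspindlin thus fell together and with no overlap between groups. The median protein-coding share of the Kif23 counts was 41.2%, as given below. Cenpa had 26.7, 27.1 and 23.4 CPM, against 37.9, 43.0 and 38.7 CPM (-0.58 ± 0.09). Ndc80 fell by 0.38 ± 0.11, Hmmr by 0.30 ± 0.08 and Pttg1 by 0.61 ± 0.13. Marker lists moved in the same comparison. In naive T control Ig libraries CD8 transcripts (2 of 2 genes called lower) summed to 597.4 to 751.7 CPM, against 925.7 to 1096.3 CPM in unstimulated ones. The regulatory T cell list (3 of 4 called higher, 0 lower) summed to 957.4 to 1027.0 CPM, against 236.1 to 290.6 CPM. The plasma cell list (3 of 4 tested called higher, 1 lower) summed to 795.6 to 936.6 CPM, against 60.1 to 75.1 CPM. Its genes Sdc1 and Mzb1 were below 1 CPM in every library of both groups. The natural killer cell list (2 of 5 called higher, 1 lower) summed to 106.9 to 119.1 CPM, against 29.4 to 45.6 CPM. Their part in the members' changes was not tested.

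The difference between the activation effects in EAE T and naive T cells was tested in a fit of all 30 T cell libraries. It was called for 34 members, all with the larger log2 change in EAE T cells, where 20.8% of 15982 genes were called in that direction and 17% in the other. The median difference was 1.03. By smallest p it was led by condensin genes: Ncaph differed by 2.42 ± 0.21, Smc2 by 1.51 ± 0.14 and Ncapd2 by 1.44 ± 0.15. Spc25, of the kinetochore, had the largest fitted difference, 2.77 ± 0.55. Ncaph illustrates it, with the rise in EAE T cells given above and 7.12, 10.9 and 7.85 CPM in naive T control Ig, against 9.47, 9.41 and 8.64 CPM in unstimulated naive T libraries. Without the libraries of replicate 3, 20 members were called. Naive and EAE T libraries also differ in the CD8 transcripts given above, and their part in this difference was not tested.

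**Figure D3:**
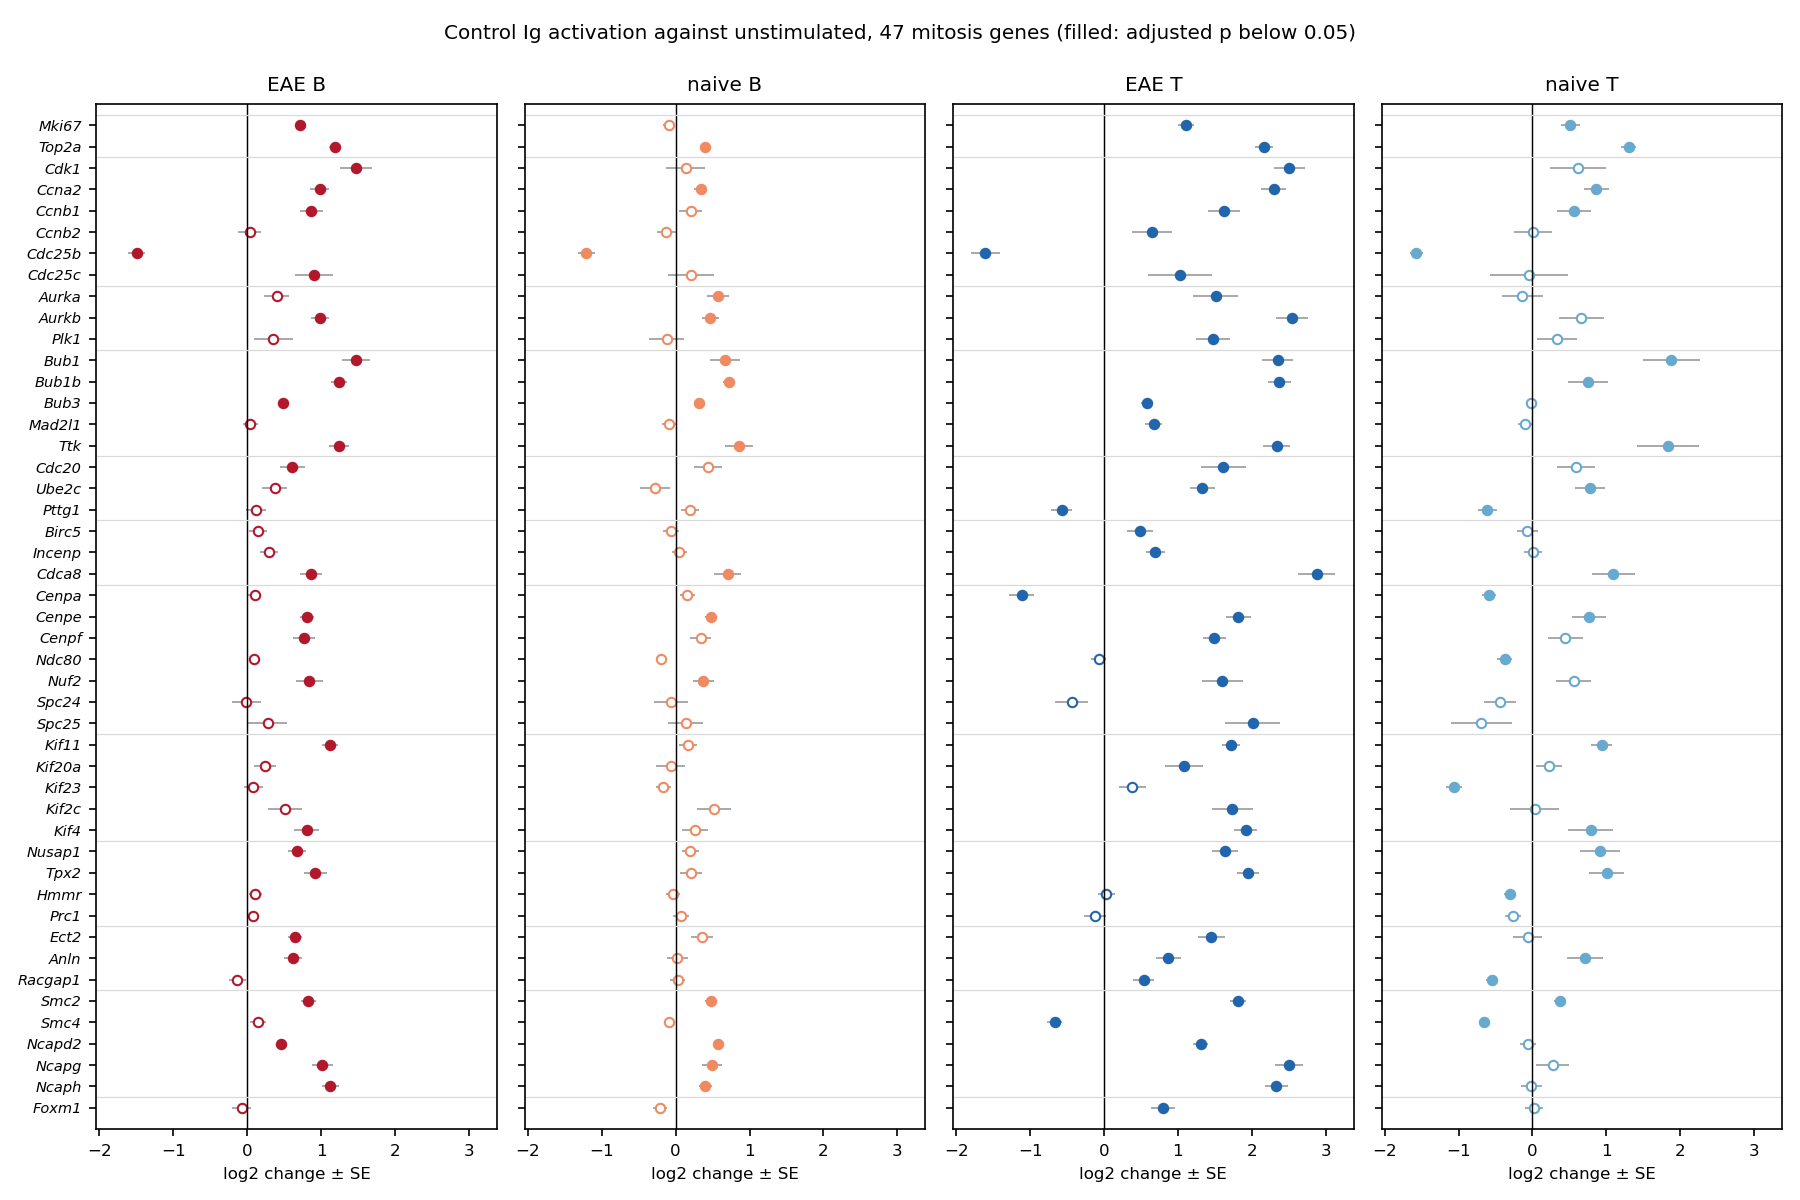
Log2 change (with SE) of each of the 47 mitosis genes in control Ig activated against unstimulated cells, by set and grouped by role, with filled points at an edgeR adjusted p below 0.05. Most points of EAE T cells lie between 1 and 3, those of EAE B cells lower, and Cdc25b is below 0 in all 4 sets.

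In B cells activation raised 26 members and lowered 1 in EAE cells, where 21% of 17007 genes were called higher and 18.8% lower, and raised 15 and lowered 1 in naive B cells, where 22.7% of 16635 genes were called higher and 17.5% lower (40.2% in all). The median log2 changes were 0.61 and 0.20. The share of members called higher in naive B cells (15 of 47) was not far above the background. Of the 15, 14 were also called in EAE B cells (93.3% of the 15 and 53.8% of the 26), and Aurka was the exception. Without the libraries of replicate 3, 8 members were called higher and 1 lower in naive B cells.

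In EAE B cells the rises with the smallest p were those of Top2a, Bub1b and Kif11. Top2a had 138, 70.0 and 114 CPM in EAE B control Ig, against 64.7, 34.5 and 54.6 CPM in unstimulated EAE B libraries (1.19 ± 0.08). Bub1b had 18.9, 14.7 and 17.1 CPM, against 7.04, 8.12 and 8.20 CPM (1.24 ± 0.11). Kif11 had 24.5, 11.4 and 20.5 CPM, against 11.9, 6.44 and 9.65 CPM (1.12 ± 0.11). For Kif11 the control Ig library of replicate 2 lay below the unstimulated one of replicate 1, and the change was seen within each number, which the fit takes as a block. Mki67 had 93.0, 47.5 and 90.8 CPM, against 64.8, 35.6 and 52.4 CPM (0.71 ± 0.07). Cdk1 had 3.92, 1.38 and 2.79 CPM, against 1.20, 0.716 and 1.14 CPM (1.47 ± 0.22), and Bub1 had 7.76, 4.16 and 6.58 CPM, against 2.50, 1.78 and 2.89 CPM (1.47 ± 0.19). These were the largest rises in EAE B cells, at levels of a few CPM. In EAE B cells 4 of 5 checkpoint and 4 of 5 condensin genes rose, Mad2l1 (0.04 ± 0.10) and Smc4 (0.14 ± 0.11) not passing the test.

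In naive B cells Bub1b, Ncapd2 and Top2a had the smallest p among the rises. Bub1b had 15.3, 16.8 and 15.6 CPM in control Ig, against 11.1, 10.4 and 9.70 CPM in unstimulated naive B libraries (0.72 ± 0.08). Ncapd2 had 32.7, 31.3 and 26.004 CPM, against 22.7, 23.2 and 19.3 CPM (0.57 ± 0.07), and Top2a had 115, 73.3 and 93.6 CPM, against 94.3, 65.7 and 70.0 CPM (0.40 ± 0.07). Only Top2a overlapped between the groups. Mki67 did not pass the test in naive B cells, with 104, 64.8 and 87.4 CPM in control Ig, against 126, 84.9 and 83.8 CPM in unstimulated libraries (-0.09 ± 0.08). Ttk had the largest rise, 0.86 ± 0.19. Checkpoint genes (4 of 5) and condensin genes (4 of 5) made up 8 of the 15.

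Cdc25b was the member that fell in both B cell sets. It had 7.09, 8.09 and 9.78 CPM in EAE B control Ig, against 22.1, 29.1 and 25.6 CPM in unstimulated EAE B libraries (-1.50 ± 0.11), and 10.5, 11.7 and 11.1 CPM in naive B control Ig, against 24.4, 32.7 and 26.1 CPM in unstimulated naive B libraries (-1.21 ± 0.11). Its exons overlap Spef1 on the opposite strand. In all, 11 members overlap another gene on the opposite strand: Ccna2, Cdc25b, Cdc25c, Cdc20, Ube2c, Cdca8, Kif20a, Kif4, Nusap1, Prc1 and Ncapg. The strand setting of the counting is not given in the sources used here, so their reads are uncertain to that extent. The B cell marker list moved in the same direction as Cdc25b, with 9 of 9 genes called lower in both sets. It summed to 3887.5 to 4378.0 CPM in EAE B control Ig, against 6602.4 to 6994.5 CPM in unstimulated EAE B. Its part in the members' changes was not tested.

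The activation effects of EAE B and naive B cells differed for 4 members, each with the larger log2 change in EAE B cells: Top2a (difference 0.81 ± 0.11), Mki67 (0.83 ± 0.11), Kif11 (0.98 ± 0.16) and Ncaph (0.74 ± 0.14), where 0.0865% of 17341 genes were called in that direction and 0% in the other. For all 4 the unstimulated EAE B libraries also lay below the unstimulated naive B libraries, a difference that did not pass the edgeR test. Mki67 had 64.8, 35.6 and 52.4 CPM in EAE, against 126, 84.9 and 83.8 CPM in naive cells. Kif11 had 11.9, 6.44 and 9.65 CPM, against 17.7, 13.5 and 14.2 CPM. Top2a had 64.7, 34.5 and 54.6 CPM, against 94.3, 65.7 and 70.0 CPM, and Ncaph had 7.2, 6.4 and 8.9 CPM, against 12.3, 12.1 and 10.8 CPM. Mki67 was called lower in unstimulated EAE B cells with the replicate block and with no filter on low counts, and Ncaph by DESeq2. The count of members whose activation effects differed was 0 without the replicate block and 0 without the libraries of replicate 1. It was 1 without those of replicate 3, so the calls rest on the block and on those libraries. It was 2 without replicate 2 of naive B unstimulated or control Ig cells, and 2 without replicate 1 of EAE B unstimulated or control Ig cells.

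The activation effects of B and T cells differed for 34 members in EAE, 3 with the larger log2 change in B cells and 31 with the larger one in T cells, where 18.2% and 19.7% of 16523 genes were called in these directions. Cdca8 (B minus T -2.02 ± 0.29), Ncapd2 (-0.85 ± 0.12) and Top2a (-0.98 ± 0.14) had the smallest p among the 31, and the 3 were Cenpa (1.22 ± 0.19), Smc4 (0.81 ± 0.17) and Pttg1 (0.70 ± 0.21). In naive cells 7 members had the larger change in B cells and 7 in T cells, where 9.02% and 14.7% of 17962 genes were called. Kif23 (0.85 ± 0.14), Smc4 (0.52 ± 0.09) and Cenpa (0.70 ± 0.14) had the smallest p among the 7 larger in B cells and Top2a (-0.95 ± 0.13), Kif11 (-0.82 ± 0.20) and Mki67 (-0.65 ± 0.16) among those larger in T cells. Without the replicate block the counts were 2 larger in B and 20 larger in T cells in EAE, and 7 and 2 in naive cells. The receptors stimulated differ between the cell types, so cell type and stimulus cannot be told apart.

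Anti-Btla lowered a large part of the mitosis genes in activated B cells. Against control Ig, 21 members fell and 2 rose in EAE B cells, where 16.5% of genes were called lower and 13.6% higher (30.1% in all), and 17 fell and 3 rose in naive B cells, where 19.7% were called lower and 13.1% higher. The median log2 changes were -0.34 and -0.25, against 0.04 and 0.01 over all genes tested. The members that fell in both sets numbered 16 (76.2% of the 21 and 94.1% of the 17): Mki67, Top2a, Ccna2, Bub1, Bub1b, Bub3, Ttk, Cdca8, Kif11, Kif4, Nusap1, Tpx2, Smc2, Ncapd2, Ncapg and Ncaph. In EAE B cells the count without the replicate block was 5 lower and 2 higher, so most of these calls rest on comparing libraries of one number, and without the libraries of replicate 1 it was 13 lower and 2 higher. Marker lists moved with anti-Btla too. The B cell list (9 genes, 8 called higher in EAE B and 7 in naive B, 0 lower) summed to 5342.8 to 5684.9 CPM in EAE B anti-Btla, against 3887.5 to 4378.0 CPM in control Ig, and to 5181.5 to 5816.6 CPM in naive B anti-Btla, against 4239.7 to 4609.4 CPM in control Ig. The regulatory T cell list (2 of 4 genes called lower in each set) summed to 72.4 to 86.9 CPM in EAE B anti-Btla, against 137.0 to 202.7 CPM in control Ig, and to 90.3 to 100.3 CPM in naive B anti-Btla, against 135.9 to 154.2 CPM in control Ig. Their part in the members' changes was not tested.

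Mki67, Top2a and Kif11 had the smallest p in EAE B cells. Mki67 had 63.0, 32.2 and 59.5 CPM in EAE B anti-Btla, against 93.0, 47.5 and 90.8 CPM in EAE B control Ig libraries (-0.66 ± 0.07). Top2a had 84.6, 43.6 and 71.6 CPM, against 138, 70.0 and 114 CPM (-0.77 ± 0.08), and Kif11 had 13.6, 5.39 and 10.9 CPM, against 24.5, 11.4 and 20.5 CPM (-0.98 ± 0.12). For all 3, each anti-Btla library was lower than the control Ig library of its number, while the groups as a whole overlapped because replicate 2 was low in both arms. Cdk1 had 1.22, 0.898 and 1.23 CPM, against 3.92, 1.38 and 2.79 CPM. Its fall of 1.36 ± 0.25 was the largest, but to levels near 1 CPM, and its lowest count in any of the 60 libraries was 6. Ccna2 had 12.1, 7.48 and 7.83 CPM, against 23.2, 10.3 and 17.2 CPM (-0.97 ± 0.14). Bub1b had 11.2, 10.6 and 10.7 CPM, against 18.9, 14.7 and 17.1 CPM (-0.72 ± 0.11), with no overlap. Tpx2 had 6.21, 3.89 and 5.08 CPM, against 10.8, 6.38 and 8.47 CPM (-0.82 ± 0.17), and Ncapg had 5.63, 5.54 and 7.76 CPM, against 10.6, 7.78 and 11.1 CPM (-0.76 ± 0.16). The groups of Tpx2 and of Ncapg were apart by a narrow margin.

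In naive B cells the smallest p belonged to Top2a, Ccna2 and Bub1b. Top2a had 76.7, 62.7 and 64.4 CPM in naive B anti-Btla, against 115, 73.3 and 93.6 CPM in naive B control Ig libraries (-0.54 ± 0.07). Ccna2 had 13.9, 9.46 and 9.32 CPM, against 18.2, 13.04 and 13.9 CPM (-0.56 ± 0.09), and Bub1b had 12.9, 12.0 and 12.0 CPM, against 15.3, 16.8 and 15.6 CPM (-0.46 ± 0.08). Mki67 fell by 0.29 ± 0.08 to 89.8, 64.8 and 66.6 CPM, against 104, 64.8 and 87.4 CPM in control Ig, where the libraries of replicate 2 were level. Without anti-Btla replicate 1 the count in naive B cells was 9 lower and 3 higher, without anti-Btla replicate 3 it was 10 lower and 3 higher, and without all libraries of replicate 1 or of replicate 3 it was 10 lower and 2 higher.

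The Aurora and Polo kinases were not among the members called lower, although the kinases Cdk1, Bub1 and Ttk were called lower in EAE B cells. Aurkb had 15.2, 10.3 and 12.1 CPM in EAE B anti-Btla, against 14.6, 8.33 and 14.2 CPM in control Ig (-0.05 ± 0.13), Aurka had 5.57, 3.44 and 4.28 CPM, against 4.89, 5.49 and 4.36 CPM (-0.17 ± 0.18), and Plk1 had 1.87, 1.35 and 1.52 CPM, against 2.87, 1.25 and 2.37 CPM (-0.50 ± 0.30). Cdc20 had 2.99, 3.74 and 2.32 CPM, against 4.14, 2.92 and 3.65 CPM (-0.38 ± 0.19). None of the 4 was called in either B cell set. Ccnb1 (-0.20 ± 0.17), Birc5 (-0.10 ± 0.13), Anln (-0.11 ± 0.13), Smc4 (-0.10 ± 0.11) and Foxm1 (-0.15 ± 0.14) likewise did not pass in EAE B cells.

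The members that rose with anti-Btla in B cells were Cdc25b and Cenpa in both sets and Ndc80 in naive B cells. Cdc25b had 17.9, 20.7 and 20.2 CPM in EAE B anti-Btla, against 7.09, 8.09 and 9.78 CPM in control Ig (1.17 ± 0.12, adjusted p = 9.54e-06 by edgeR), and 22.9, 21.1 and 19.7 CPM in naive B anti-Btla, against 10.5, 11.7 and 11.1 CPM in control Ig (0.84 ± 0.12). Its anti-Btla libraries lay between the control Ig libraries and the unstimulated ones in both sets. Cenpa had 34.4, 40.3 and 40.0 CPM in EAE B anti-Btla, against 24.01, 23.5 and 29.3 CPM in control Ig (0.49 ± 0.09), and 43.3, 42.6 and 40.7 CPM in naive B anti-Btla, against 31.6, 28.5 and 30.4 CPM in control Ig (0.39 ± 0.10). Its anti-Btla libraries were above the control Ig and the unstimulated libraries alike. Ndc80 had 26.01, 28.1 and 24.5 CPM in naive B anti-Btla, against 22.002, 19.2 and 21.3 CPM in control Ig (0.24 ± 0.08). The change of Cenpa in EAE B cells and that of Ndc80 did not pass when counts were summed over protein-coding transcripts alone (0.34 ± 0.17 and 0.19 ± 0.12).

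Set beside activation, with which it shares the control Ig libraries, the fall with anti-Btla covered 21 of the 26 members that activation raised in EAE B cells and no other member, and 11 of the 15 in naive B cells with Mki67, Pttg1, Kif11, Kif4, Nusap1 and Tpx2 besides. Ccnb1, Cdc25c, Aurkb, Cdc20 and Anln in EAE B cells, and Aurka, Aurkb, Cenpe and Nuf2 in naive B cells, were raised by activation and not called lower with anti-Btla. Since the comparisons share libraries, these counts describe the values and carry no test.

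**Figure D4:**
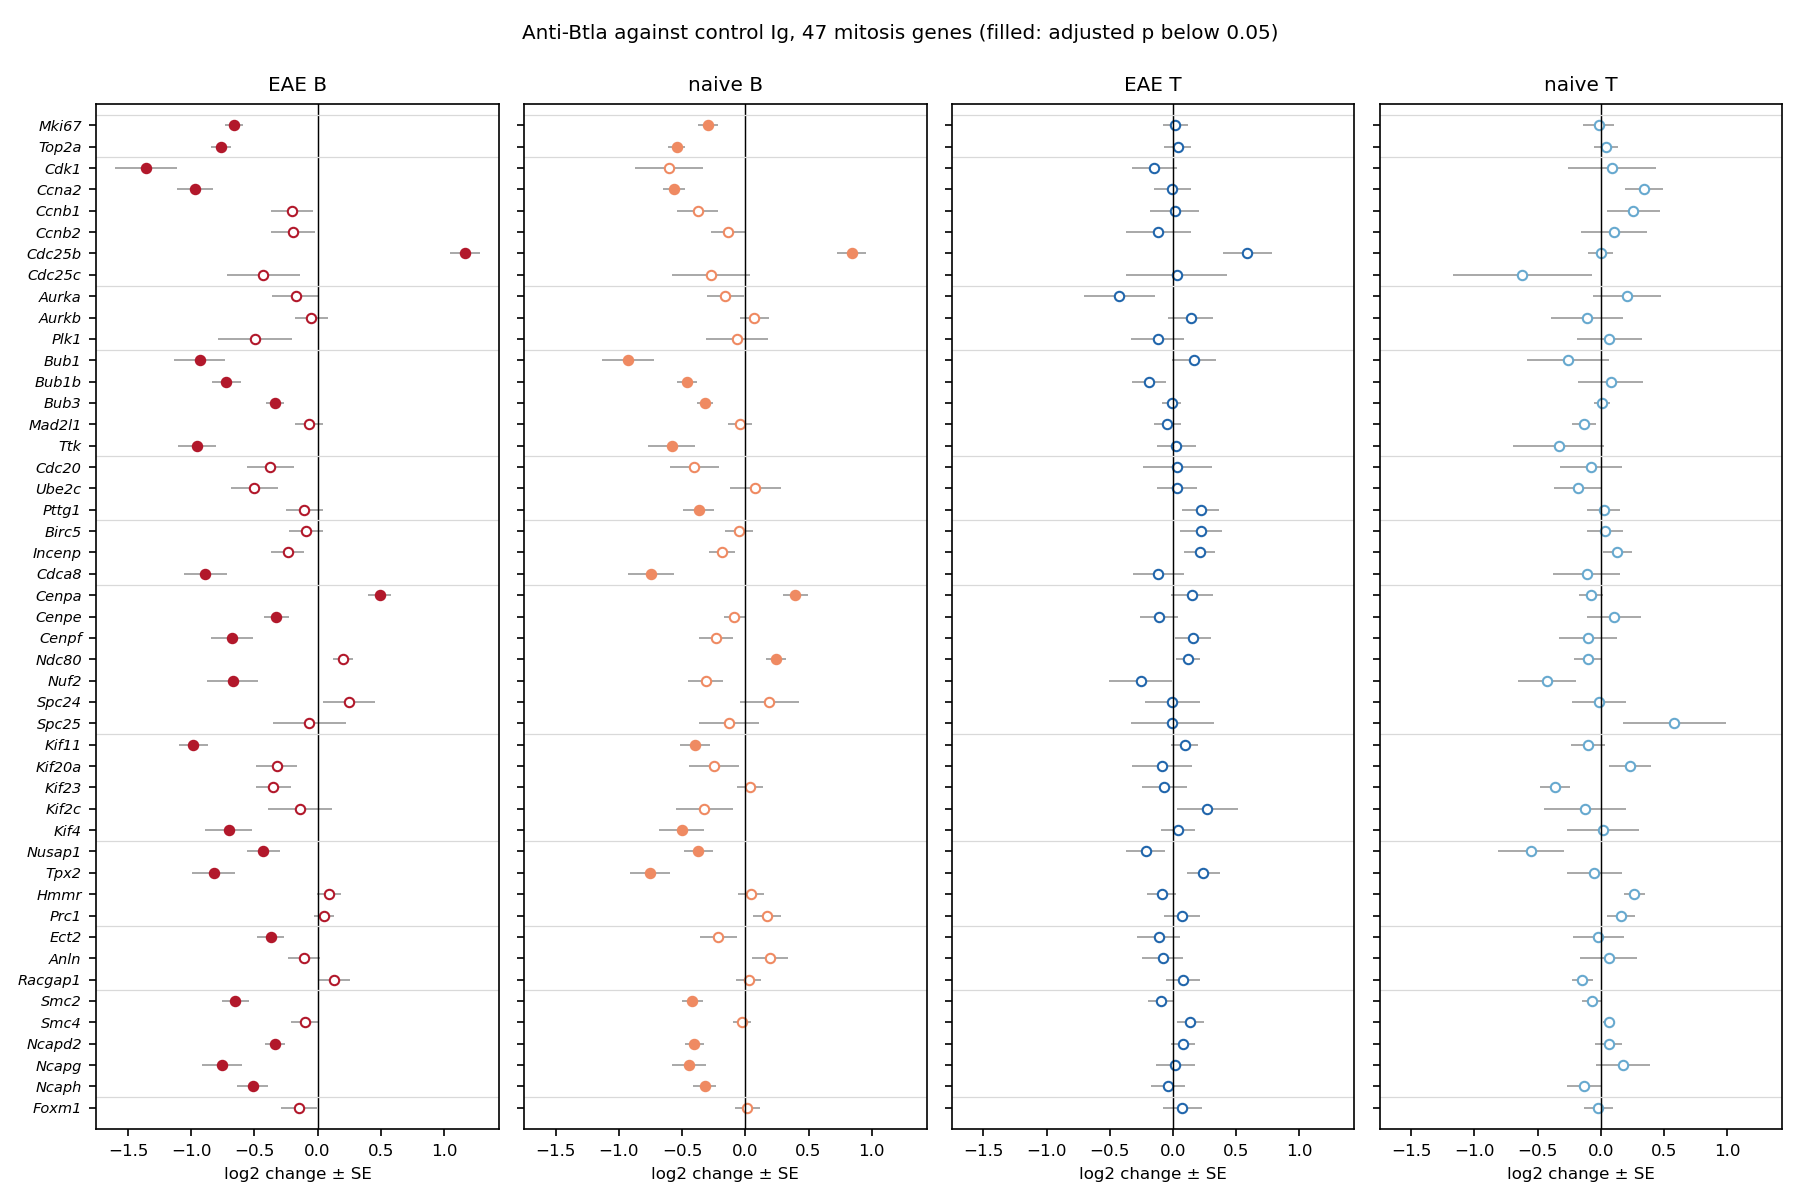
Log2 change (with SE) of each of the 47 mitosis genes with anti-Btla against control Ig, by set and grouped by role, with filled points at an edgeR adjusted p below 0.05. In EAE B and naive B cells 21 and 17 points are filled below 0, Cdc25b and Cenpa are filled above 0 in both, and no point is filled in EAE T or naive T cells.

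The anti-Btla comparison was also made in the arms with IFNb, which share no library with those without it. Both comparisons of a set come from the same fit of 15 libraries, with one estimate of the spread and one replicate block. Libraries of one number also deviated together (median correlation 0.546 in EAE B and 0.488 in naive B). The shared calls are therefore not those of independent experiments. In EAE B cells 24 members fell and 3 rose, where 17.4% of genes were called lower and 13.6% higher, and in naive B cells 13 fell and 3 rose, where 17.5% were called lower and 11.9% higher. Of the 24, 20 had also fallen without IFNb (83.3%, and 95.2% of the 21), and of the 13, 11 had (84.6%, and 64.7% of the 17). Mki67 had 64.5, 32.1 and 58.7 CPM in EAE B anti-Btla with IFNb, against 110, 49.5 and 87.6 CPM in control Ig with IFNb (-0.72 ± 0.07), and Top2a had 83.1, 46.99 and 63.7 CPM, against 149, 64.2 and 110 CPM (-0.77 ± 0.08). These changes held within each number while the groups overlapped. Kif11 had 13.05, 8.32 and 10.9 CPM, against 23.7, 10.5 and 19.4 CPM (-0.78 ± 0.11). Ttk had 4.02, 2.23 and 3.00 CPM, against 7.70, 4.47 and 5.27 CPM (-0.97 ± 0.14), with no overlap. In naive B cells Top2a fell by 0.52 ± 0.07, Ncapd2 by 0.37 ± 0.07 and Ncaph by 0.43 ± 0.09, the 3 with the smallest p. Cdc25b, Cenpa and Ndc80 were the 3 that rose in both sets: Cdc25b by 1.12 ± 0.12 and 1.05 ± 0.12, Cenpa by 0.38 ± 0.09 and 0.37 ± 0.10 and Ndc80 by 0.23 ± 0.07 and 0.32 ± 0.08 in EAE and naive B cells. Without the replicate block the EAE B count was 6 lower and 2 higher. Without the libraries of replicate 1 it was 15 lower and 2 higher, without those of replicate 3 it was 15 lower and 1 higher, and the naive B count without replicate 3 was 6 lower and 1 higher.

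No member was called with anti-Btla in T cells, a result that does not exclude small effects. On simulated counts for this comparison in EAE T cells, 41% of 1.5-fold and 59% of 2-fold changes were recovered. In EAE B cells these shares were 37% and 58%. By edgeR 0 of 47 were called in EAE T and in naive T cells, where 0.0686% and 0% of genes were called (0.0480% higher and 0.0206% lower in EAE T cells), and with IFNb 0 were called, where 0% of genes in EAE T and 0.0132% in naive T cells were called. At an unadjusted edgeR p below 0.05 there were 1 and 4 members without IFNb and 3 and 5 with it, and DESeq2 called 0 in all 4. The shares of all genes above are of adjusted calls, so the unadjusted counts have no background here and no excess is read from them. Mki67 had 139, 181 and 205 CPM in EAE T anti-Btla, against 153, 178 and 195 CPM in EAE T control Ig, and Top2a had 270, 313 and 293 CPM, against 267, 292 and 313 CPM, with fully overlapping groups. The members' log2 changes ran from -0.42 to 0.59 in EAE T cells with a median of 0.02. Cdc25b had 11.1, 12.9 and 16.1 CPM in EAE T anti-Btla, against 6.15, 11.1 and 9.99 CPM in control Ig, and did not pass. Btla itself was measured at 265 to 329 CPM in EAE T anti-Btla and 441 to 583 CPM in EAE B anti-Btla libraries. In naive cells it was at 117 to 135 CPM in T and 581 to 599 CPM in B anti-Btla libraries. The part of these levels in the T cell result was not tested. The anti-Btla effects in EAE and naive cells were not called different for any member in B or T cells (0 by edgeR and by DESeq2), where 0% and 0.244% of genes were called. At an unadjusted edgeR p below 0.05 there were 10 and 2 members, again without a share of all genes at that cutoff.

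IFNb, tested over both bead arms, left the members almost uncalled. In EAE T cells 1 member was called, where 1.43% of genes were called lower and 0.782% higher (2.22% in all): Tpx2, which had 17.9, 20.2 and 17.3 CPM in control Ig with IFNb, against 24.3, 22.5 and 21.8 CPM in control Ig alone, and 15.2, 21.2 and 15.5 CPM in anti-Btla with IFNb, against 22.96, 29.05 and 27.5 CPM in anti-Btla alone (-0.40 ± 0.09). Its call was lost without the replicate block and in 11 of 12 fits that left out 1 library. As a description with no test, the summed CPM of the 46 members other than Smc4 was 1171.1 to 1293.1 in EAE T control Ig with IFNb, against 1328.1 to 1489.2 in control Ig alone, and 1199.8 to 1293.5 in anti-Btla with IFNb, against 1300.4 to 1472.4 in anti-Btla alone, with no overlap in either arm. In EAE B, naive B and naive T cells 0 members and 0% of genes were called by edgeR, with 0 members at an unadjusted p below 0.05 in each, and DESeq2 also called 0 members.

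EAE and naive cells were compared without activation and with it. In unstimulated T cells 17 members were higher and 5 lower in EAE, where 18.6% of 13918 genes were called higher and 17% lower. Mki67 had 73.0, 104 and 75.9 CPM in EAE T, against 28.04, 27.2 and 28.7 CPM in naive T libraries (1.67 ± 0.15), Top2a had 57.3, 89.9 and 56.6 CPM, against 19.5, 23.1 and 19.9 CPM (1.78 ± 0.19), and Bub1 had 1.74, 5.08 and 3.20 CPM, against 1.04, 0.513 and 0.464 CPM (2.50 ± 0.50). The EAE libraries were above the naive ones for each of the 3. The 5 lower in EAE were Racgap1 (-2.20 ± 0.14), Cdc25b (-1.29 ± 0.14), Smc4 (-0.83 ± 0.12), Kif23 (-1.13 ± 0.17) and Bub3 (-0.38 ± 0.08). Racgap1 had 11.9, 8.82 and 12.7 CPM in EAE T, against 48.3, 61.1 and 55.2 CPM in naive T libraries, with no overlap. Without naive T replicate 3 the counts were 8 higher and 5 lower, and without the libraries of replicate 3 in both groups 5 higher and 4 lower. The fall of Smc4 did not pass over protein-coding transcripts alone (-0.15 ± 0.15).

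In T cells activated with control Ig, 38 members were higher and 3 lower in EAE, where 27.7% of 13487 genes were called higher and 23.9% lower. Top2a (2.65 ± 0.09), Ccna2 (2.49 ± 0.12) and Smc2 (1.40 ± 0.08) had the smallest p, and Racgap1 (-1.11 ± 0.10), Smc4 (-0.83 ± 0.08) and Cdc25b (-1.30 ± 0.21) were lower. Ccna2 had 42.1, 47.7 and 52.0 CPM in EAE T, against 9.59, 8.95 and 8.41 CPM in naive T libraries. Marker lists differed between the same groups: CD8 transcripts (2 of 2 genes called lower in EAE) summed to 14.6 to 15.2 CPM in EAE T, against 597.4 to 751.7 CPM in naive T control Ig libraries, and in unstimulated cells the myeloid list (6 of 6 genes tested called higher) summed to 137.8 to 360.1 CPM in EAE T, against 15.8 to 25.8 CPM in naive T. Their part in the members' differences was not tested.

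In B cells 0 members were called between EAE and naive cells, unstimulated or activated, where 0.0492% and 0.0188% of genes were called (in unstimulated cells 0.0246% in each direction, and in activated cells 0.0126% higher and 0.00628% lower). At an unadjusted edgeR p below 0.05 there were 13 members in unstimulated and 2 in activated B cells, and DESeq2 called 1 (Ncaph, lower) and 0. In unstimulated EAE B cells 42 of 47 log2 changes of the members were below 0, with a median of -0.17. Neither the unadjusted counts nor this lean is set against all genes tested, so no excess among the members is read from them.

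Several members gave many of their counts to transcripts that the annotation does not call protein-coding, such as retained introns. The median protein-coding share over the 12 groups examined (anti-Btla, control Ig and unstimulated arms of 4 sets) was under 50% for 5 members: Ncapg (36.0%), Cenpa (36.2%), Kif23 (41.2%), Prc1 (41.4%) and Smc4 (49.8%). For Birc5 and Ccnb2 it was 100%. The share moved with activation in EAE T cells, where it was 66.3% for Kif23 in control Ig, against 39.8% in unstimulated libraries, 65.4% against 43.5% for Ndc80, and 63.5% against 39.9% for Prc1. It moved the other way for Smc4 (49.3% in control Ig, against 67.3% in unstimulated libraries), Mad2l1 (60% against 77.0%) and Ect2 (36.6% against 43.0%). Summed over protein-coding transcripts alone, Kif23 rose by 1.01 ± 0.27 and Ndc80 by 0.37 ± 0.13 in activated EAE T cells, where neither passed over all transcripts, and Prc1 reached 0.39 ± 0.24 without passing. Cenpa (-1.39 ± 0.23), Smc4 (-1.27 ± 0.24), Cdc25b (-1.72 ± 0.21) and Pttg1 (-0.42 ± 0.17) still fell. Ncapg had a steeper rise of 3.58 ± 0.48. Salmon divides reads between overlapping transcripts by estimation, and the accuracy of this division was not tested.

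**Figure D5:**
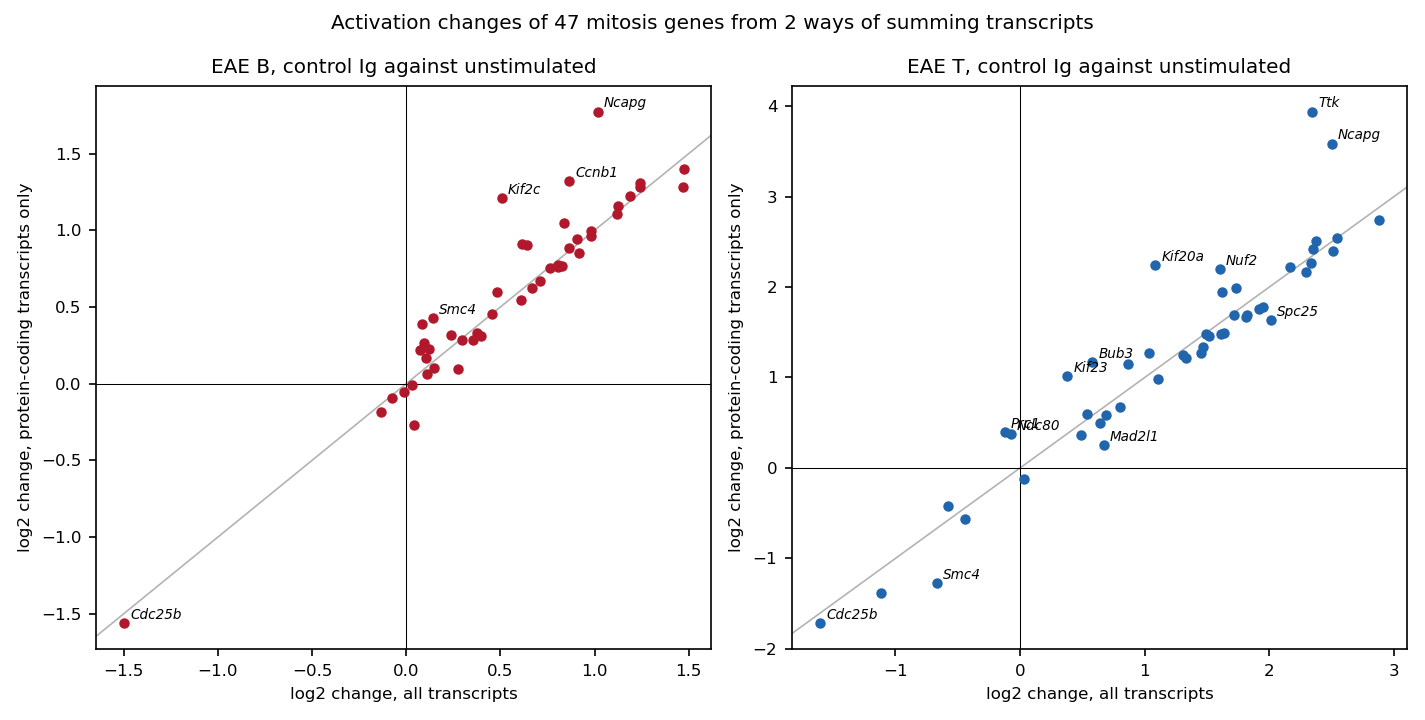
Log2 change with activation of the 47 mitosis genes from all transcripts (horizontal axis) and from protein-coding transcripts only (vertical axis) in EAE B and EAE T cells, with the line of equal values. Most genes lie near the line, and in EAE T cells Kif23 (0.38 and 1.01) and Ncapg (2.50 and 3.58) are among those above it.

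The mitosis genes outside these 47 were counted from 8 lists of kinetochore, spindle, anaphase-promoting complex, cohesin, entry and exit, condensin II, cytokinesis and regulator genes. With activation 62 rose and 8 fell of 138 tested in EAE B, 46 and 9 of 139 in naive B, 91 and 17 of 139 in EAE T, and 43 and 33 of 137 in naive T cells. The shares of all genes called higher and lower were 21% and 18.8% in EAE B, 22.7% and 17.5% in naive B, 31.7% and 31.3% in EAE T, and 27.1% and 23% in naive T cells, so the naive T counts were close to the background. With anti-Btla 7 rose and 42 fell of 138 in EAE B, 9 rose and 39 fell of 139 in naive B, and 0 were called in EAE T and naive T cells, where 13.6% of all genes were called higher and 16.5% lower in EAE B and 13.1% higher and 19.7% lower in naive B cells. Kntc1, which recruits dynein to kinetochores, rose by 1.98 ± 0.09 with activation and fell by 1.20 ± 0.10 with anti-Btla in EAE B cells, and Cks1b, a Cdk-binding subunit, rose by 1.58 ± 0.12 and fell by 0.80 ± 0.13. Stil, a centriole assembly gene, rose by 1.44 ± 0.11 and fell by 0.93 ± 0.12. In EAE T cells activation raised Cep55, which recruits the abscission machinery, by 3.45 ± 0.26, Cdca5 (sororin) by 2.87 ± 0.25 and the condensin II subunit Ncapg2 by 2.63 ± 0.13.

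Of the regulators, Tfdp1, the dimerization partner of E2F, rose by 2.95 ± 0.12 and Rbl2, the p130 pocket protein of DREAM, fell by 1.13 ± 0.09 in activated EAE T cells. In EAE B cells Tfdp1 fell by 0.94 ± 0.09 and Rbl2 rose by 0.34 ± 0.06 with anti-Btla. The regulator list as a whole was split, with 9 higher and 7 lower of 19 in activated EAE T cells. Genes of DNA replication, which precedes mitosis, were counted in the same way: activation raised 23 and lowered 1 of 31 in EAE B, 19 and 3 in naive B, 29 and 1 in EAE T, and 13 and 2 in naive T cells, and anti-Btla lowered 22 and raised 0 of 31 in each B cell set. The shares of all genes given for the mitosis lists apply here too. Mcm6, a subunit of the replicative helicase, rose by 2.35 ± 0.09 in activated EAE T cells and by 1.20 ± 0.07 in activated EAE B cells, and fell by 0.69 ± 0.07 with anti-Btla in EAE B cells.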

How the data were processed

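RNA of 60 libraries was quantified by the authors with Salmon against GRCm38 transcripts, and 67 deposited tables give estimated counts and TPM per transcript. No source used here names the versions or the strand setting. Counts were summed per gene by GENCODE M21 symbols, 7 T cell libraries having 2 runs that were added, and rounded to whole numbers. Unmatched transcripts (0.158 to 0.684% of counts) were left out. CPM were scaled to total gene counts, and deposited TPM were summed per gene.

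Genes with enough counts (filterByExpr, minimum count 10) were tested with edgeR 4.0.16 (R 4.3.3, TMM, quasi-likelihood F test, Benjamini-Hochberg adjustment over all genes, threshold 0.05). As in the study's general methods, the replicate number was a block in fits of 15 libraries per set and 30 for differences. EAE was set against naive in 6 libraries without it. DESeq2 1.42.0, other scalings and filters, fits with or without the block and left-out libraries were alternatives. On simulated counts for anti-Btla in EAE B cells (17007 genes), 37% of 1.5-fold and 58% of 2-fold changes were recovered. For anti-Btla in EAE T cells (14572 genes) the shares were 41% and 59%.

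Per-library values are given for 19 members fixed by role and, per comparison, the 3 called members with the smallest p in each direction. Further values were chosen after they were seen. Members and lists were chosen with earlier results of these data known.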

Additional observations from a re-analysis of the deposited data

Results flagged for a closer look

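The activation effect differed between EAE and naive cells for 4 members in B cells and 34 in T cells (edgeR, difference of log2 changes, adjusted p below 0.05), where 0.0865% and 37.8% of all genes were called. The 4 calls in B cells fell to 0 without the replicate block and to 0 without the libraries of replicate 1. In B cells the EAE minus naive difference was 0.81 for Top2a, 0.83 for Mki67 and 0.98 for Kif11. In T cells it was 2.42 for Ncaph, 1.51 for Smc2 and 1.44 for Ncapd2.

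The activation effect also differed between B and T cells, for 34 members in EAE and 14 in naive cells, where 37.9% and 23.7% of all genes were called, so the naive count was not far above the background. In EAE the B minus T difference was -2.02 for Cdca8, -0.85 for Ncapd2 and -0.98 for Top2a. In naive cells it was -0.95 for Top2a, 0.85 for Kif23 and 0.52 for Smc4.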

How the results depend on the processing

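Of 386 other settings over the 26 counts of called members, 357 stayed within 1.5 times the count, and of 104 chosen after seeing the data (protein-coding transcripts only, and without all libraries of one number) 89 did. Without the replicate block, anti-Btla in EAE B cells called 7 members and 8 with IFNb, IFNb in EAE T cells 0, and the activation difference 0 for EAE minus naive B, 9 for B minus T in naive and 22 in EAE cells. EAE against naive unstimulated B cells called 1 with the replicate block (Mki67), 1 by DESeq2 (Ncaph) and 1 with no filter (Mki67). Anti-Btla with IFNb in naive T cells called 1 with no filter (Smc4), and IFNb in EAE T cells called 3 with total counts and 0 over protein-coding transcripts.

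Leaving out libraries gave 9 to 17 called members for activation in naive B cells, 12 to 18 for anti-Btla in naive B and 15 to 27 in EAE B cells, and with IFNb 7 to 15 and 16 to 27. It gave 0 to 1 for IFNb in EAE T cells, 9 to 20 for EAE against naive unstimulated T cells, and for the activation difference 0 to 4 in B and 20 to 35 in T cells. Libraries that share a number deviated together, with a median correlation of 0.281 to 0.546 in the 4 sets, above 0.1 in 25 to 30 of 30 pairs, and those of other pairs -0.355 to -0.132. The labels do not say what a number shares. Depth limits members with few counts, since 41 of the 47 had at least 10 counts in every library.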
